A study of Mus musculus with 18 samples.

Results

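The genes of the oligodendrocyte lineage and of myelin were followed across 18 arrays of mouse hypothalamus. The set holds 30 genes, named by what is known of the lineage and chosen with earlier results of these data known. Of them, 29 were measured by a probeset that the annotation assigns to 1 gene, out of 19937 genes measured in this way. Each of the 29 has 1 such probeset, and Enpp2 was not analysed here. They were divided into 4 genes of precursors and newly formed cells, 4 transcription factors and 21 genes of mature, myelin-forming cells. The first 4, Pdgfra, Cspg4, Gpr17 and Bcas1, are called precursor genes below.

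The study set hypothalami of mice mutant for Wfs1 beside hypothalami of wild-type mice. The strain background is 129SV by the sample labels, whereas the design text has 129S6. Wfs1 encodes wolframin, a membrane protein of the endoplasmic reticulum. Every array carries a genotype field and a title that ends in ko or wt, and the pair contradict each other on 9 arrays. Written as ending/field, there were 5 ko/KO, 5 ko/WT, 4 wt/KO and 4 wt/WT arrays, so that 10 arrays end in ko and 8 in wt, while 9 have the field KO and 9 the field WT. The labels leave out the kind of mutation and the age and sex of the mice. They also do not state that arrays come from different mice, and the p-values below then measure the spread between arrays only.

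The Wfs1 signal itself followed neither label. It lay between 7.86 and 8.07 log2 units on 10 arrays and between 8.36 and 8.72 on 8, with no array between 8.07 and 8.36, and the division used here was set at 8.2. Of the 10 arrays below it, 2 are ko/KO, 2 ko/WT, 3 wt/KO and 3 wt/WT. Of the 8 above it, 3 are ko/KO, 3 ko/WT, 1 wt/KO and 1 wt/WT. These sides were drawn from a measured level and are not genotypes, and the Wfs1 values that define them are a description. The median of an array was 7.10 to 7.19 log2 units, and the standard deviation of its values 1.93 to 2.04. Arrays wt/WT 1, wt/WT 2 and ko/KO 2 had the 3 smallest standard deviations, and results that move without them are given with that value.

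Oligodendrocytes wrap axons in myelin, a stack of lipid-rich membrane that speeds conduction and supplies the axon. They arise from precursor cells that persist and divide in the adult brain, stop dividing, pass through a premyelinating stage and then switch on myelin proteins and the enzymes of myelin lipids. Transcription factors of the Olig and Sox families specify the lineage, and later ones such as Myrf drive the myelin genes. The hypothalamus carries less myelin than the optic tract and the thalamus beside it.

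All 29 measured genes had a mean above the highest array median, and 28 lay above the median of their own array on each of the 18 arrays. The defining genes of mature oligodendrocytes were therefore well within the measured range: Mbp, a protein that compacts the myelin membrane, ran from 11.16 to 11.51 log2 units, and Mog, a surface protein of the outermost myelin layer, from 9.07 to 9.85. Pdgfra, the growth factor receptor that marks precursors, ran from 9.36 to 9.79. The gene that did not clear its array median everywhere was Cspg4, the precursor proteoglycan NG2, which ran from 7.14 to 7.49. In bulk tissue a lower value can come from fewer cells of a type or from less RNA per cell, and these cannot be told apart.

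Arrays with Wfs1 below 8.2 were compared first with those above it. On the low-Wfs1 arrays 28 of the 29 genes had a lower mean, where 51.5% of all genes did, and the median log2 difference, low minus high, was -0.14 over the 29 genes and -0.002 over all genes. None of the 29 passed a Benjamini-Hochberg adjusted p of 0.05 in limma's moderated test. Over all genes 2 passed, 0.0100% of those tested, and they were Wfs1 itself and the complement gene C4b. At an unadjusted p under 0.05, 13 of the 29 were lower on the low-Wfs1 arrays and 0 were higher, where 2.74% of all genes were lower. The set was chosen with earlier results of these data known, so these counts and shares are a description. None of the 29 had all 10 low-Wfs1 arrays below all 8 high-Wfs1 arrays, as 3 genes, or 0.0150% of all, did (Wfs1, Cmtm5 and Wbp1), and none the reverse, as 1 gene, C4b, or 0.00502% of all, did. C4b and Wbp1 were named after their values were seen. Of the mature-cell genes 21 of 21 were lower, with a median of -0.17 and 12 at an unadjusted p under 0.05, and of the transcription factors 4 of 4, with a median of -0.05 and 1 at an unadjusted p under 0.05. Whether either group differs in this from the precursor genes was not tested.

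**Figure D1:**
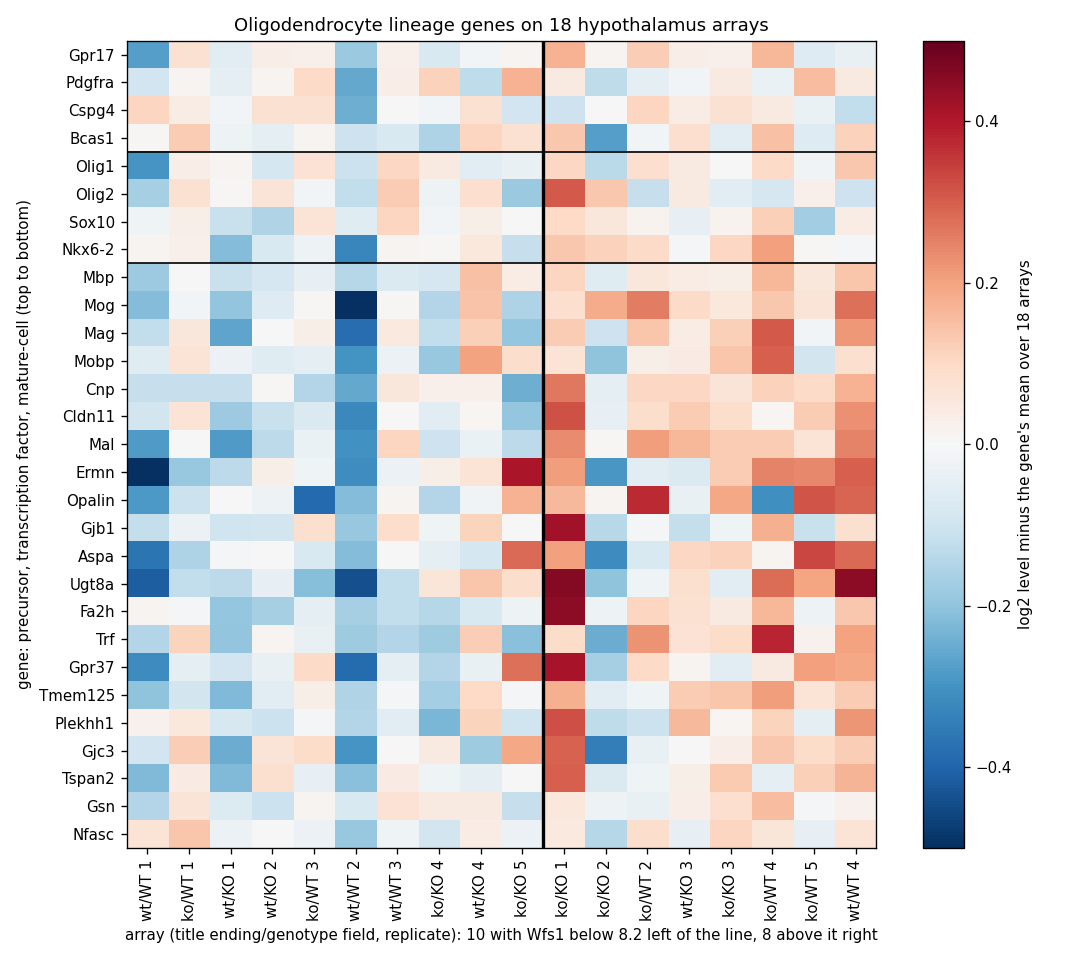
Log2 level of each of the 29 genes (rows) on each of the 18 arrays (columns), with the mean of the gene over all arrays subtracted; red is above that mean and blue below it. The 10 arrays with Wfs1 below 8.2 stand left of the thick line and the 8 above it right of it, and the rows run through precursor genes, transcription factors and mature-cell genes. Array wt/WT 2 is blue in nearly every row and ko/KO 1 red in most, and mature-cell rows are bluer on the left, with ko/KO 2 an exception on the right.

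Among the structural proteins of compact myelin, Mal stood farthest from 0. Mal is a proteolipid of lipid rafts that takes part in sorting membrane to myelin. It ran from 9.87 to 10.28, with a median of 10.06, on the low-Wfs1 arrays, against 10.18 to 10.42, with a median of 10.32, on the high-Wfs1 arrays. Thus 9 of the 10 low-Wfs1 arrays lay below every high-Wfs1 array, and the array that overlapped was wt/WT 3. The log2 difference was -0.27 (SE 0.056, limma adjusted p = 0.362). Mog ran from 9.07 to 9.72 on the low-Wfs1 arrays, with a median of 9.47, against 9.63 to 9.85 on the high-Wfs1 arrays, with a median of 9.69. Here too 9 of 10 lay below the lowest high-Wfs1 array, and wt/KO 4 was the one inside its range. The difference was -0.26 (SE 0.066, limma adjusted p = 0.594).

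Cldn11, the claudin that forms the tight junctions of the myelin sheath, ran from 9.31 to 9.70 on the low-Wfs1 arrays, with a median of 9.55, against 9.59 to 9.95, with a median of 9.74, on the high-Wfs1 arrays. The ranges overlapped at their ends, with 7 of the 10 low-Wfs1 arrays below every high-Wfs1 array, and the difference was -0.21 (SE 0.056, limma adjusted p = 0.594). Mag, an adhesion protein of the innermost myelin layer facing the axon, overlapped more: 5 of the low-Wfs1 arrays lay below the high-Wfs1 range, and the difference was -0.19 (SE 0.068, limma adjusted p = 0.999). Mbp differed by -0.12 (SE 0.046) and Mobp, a further basic protein of compact myelin, by -0.08 (SE 0.066). The ranges of both overlapped, with 6 of the 10 low-Wfs1 arrays below every high-Wfs1 array for Mbp and 1 for Mobp.

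The genes of myelin lipids and of the cytoplasmic channels of the sheath gave differences of similar size. Cnp, an enzyme that keeps cytoplasm open between myelin layers, ran from 10.94 to 11.25 on the low-Wfs1 arrays, with a median of 11.08, against 11.15 to 11.46, with a median of 11.30, on the high-Wfs1 arrays. Only ko/KO 2 among the high-Wfs1 arrays fell inside the low-Wfs1 range, and the difference was -0.20 (SE 0.052, limma adjusted p = 0.594). Ugt8a, the enzyme that makes the galactolipids of myelin, differed by -0.27 (SE 0.093, limma adjusted p = 0.988), as much as Mal but with a wider spread. Its values ran from 9.39 to 9.97 on the low-Wfs1 arrays and from 9.63 to 10.29 on the high-Wfs1 arrays, so only 3 low-Wfs1 arrays lay below the other side. Fa2h, which hydroxylates the fatty acids of those lipids, ran from 8.07 to 8.28 on the low-Wfs1 arrays and from 8.24 to 8.71 on the high-Wfs1 arrays, a difference of -0.21 (SE 0.056, limma adjusted p = 0.616). The value of 8.71 belongs to ko/KO 1 and lies well above the other high-Wfs1 arrays, of which the next is at 8.43.

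The remaining mature-cell genes ranged more widely. Opalin, a glycoprotein of the myelin surface, differed by -0.23 (SE 0.085), Trf, the iron carrier transferrin that oligodendrocytes make, by -0.19 (SE 0.070), Tmem125, a membrane protein enriched in these cells, by -0.18 (SE 0.051) and Tspan2, a tetraspanin of the myelin membrane, by -0.14 (SE 0.058). All 4 were among the 12 at an unadjusted p under 0.05, and their ranges on the sides overlapped. Gpr37, a receptor of maturing oligodendrocytes, differed by -0.17 (SE 0.081), Ermn, a cytoskeletal protein of the outer sheath, by -0.16 (SE 0.101), Aspa, which splits N-acetylaspartate to supply acetate, by -0.15 (SE 0.083) and Plekhh1 by -0.12 (SE 0.062). Ermn overlapped completely at the top, since its highest value, 9.83, is that of a low-Wfs1 array, ko/KO 5. The gap junction genes Gjb1 and Gjc3, which couple oligodendrocytes and the layers of their sheath, differed by -0.06 (SE 0.067) and -0.07 (SE 0.078), the actin-severing gene Gsn by -0.06 (SE 0.043) and Nfasc, an adhesion molecule of the paranode, by -0.03 (SE 0.047). For Gjb1, Gjc3 and Nfasc the standard error is larger than the difference. Without ko/KO 1, Gjb1 differed by -0.007 and Gjc3 by -0.030, and without ko/KO 2 by -0.087 and -0.122.

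Of the transcription factors, Nkx6-2, a homeobox factor of late oligodendrocyte maturation, ran from 8.27 to 8.65 on the low-Wfs1 arrays, with a median of 8.59, against 8.59 to 8.80, with a median of 8.70, on the high-Wfs1 arrays. On each side 5 arrays lay outside the range of the other, and the difference was -0.15 (SE 0.052, limma adjusted p = 0.999). The factors that act through the whole lineage gave smaller values: Olig1 differed by -0.07 (SE 0.052), Olig2 by -0.035 (SE 0.060) and Sox10 by -0.03 (SE 0.046). None of Olig1, Olig2 and Sox10 reached an unadjusted p of 0.05.

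Among the precursor genes, Pdgfra, Cspg4 and Bcas1 were close to level across the sides, and Gpr17 stood farther from 0. Pdgfra ran from 9.36 to 9.79 on the low-Wfs1 arrays and from 9.49 to 9.77 on the high-Wfs1 arrays, with a median of 9.63 on both, and the difference was -0.016 (SE 0.054, limma adjusted p = 0.999). Cspg4 ran from 7.14 to 7.49 on the low-Wfs1 arrays and from 7.26 to 7.49 on the high-Wfs1 arrays, with a median of 7.40 on both. Bcas1, which marks cells that are beginning to myelinate, differed by -0.017 (SE 0.056), and Gpr17, a receptor of the premyelinating stage, by -0.098 (SE 0.051). The high-Wfs1 range lies inside the low-Wfs1 range for Pdgfra and Cspg4. The median of the 4 differences was -0.016 and 0 of the 4 reached an unadjusted p of 0.05, which with these errors does not show that they are equal.

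**Figure D2:**
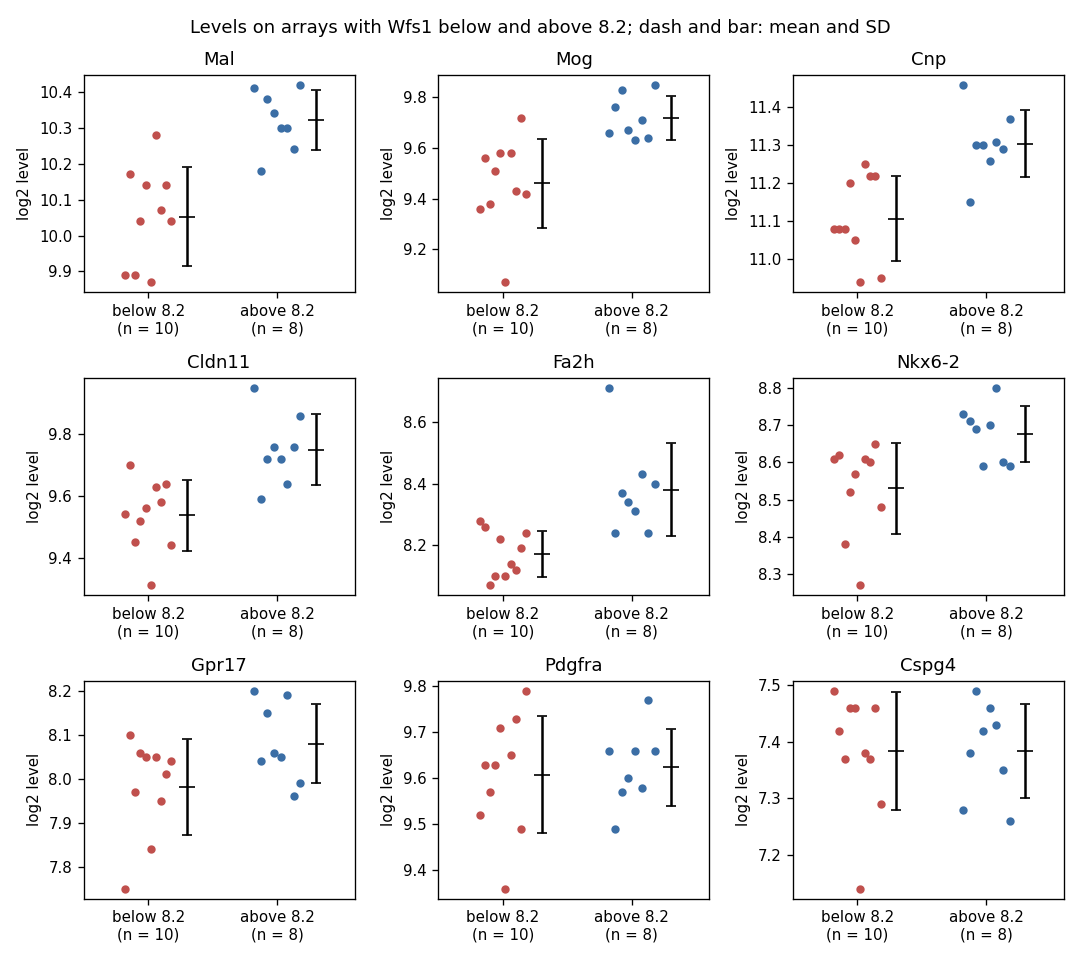
Log2 level of 9 genes on each array, with the 10 arrays of Wfs1 below 8.2 on the left and the 8 above 8.2 on the right of each panel; the dash and bar give the mean and SD, and the vertical axes differ between panels. Mal, Mog and Cnp show a short overlap of the sides, and Pdgfra and Cspg4 overlap throughout.

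The 3 genes with the smallest unadjusted p in this comparison, Mal, Mog and Cnp, are shown with the 250 bases before their annotated start so that their promoters can be read beside their values. The sequences are RefSeq's on GRCm38.p6, written 5′ to 3′ on the strand of the gene, and capitals mark matches, on either strand, to words taken from known binding preferences: ACAAAG or ACAATG for Sox factors, CAGCTG for the E-box of Olig factors, and CTGGCAC or CTGGTAC for Myrf. The windows are chr2:127656696-127656945 on the minus strand for Mal, chr17:37023399-37023648 on the minus strand for Mog and chr11:100574689-100574938 on the plus strand for Cnp.
Mal: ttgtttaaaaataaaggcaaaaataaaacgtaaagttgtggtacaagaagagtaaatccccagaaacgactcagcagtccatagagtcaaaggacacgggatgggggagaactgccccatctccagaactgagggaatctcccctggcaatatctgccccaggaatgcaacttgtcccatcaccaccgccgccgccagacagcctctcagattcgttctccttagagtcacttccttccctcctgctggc
Mog: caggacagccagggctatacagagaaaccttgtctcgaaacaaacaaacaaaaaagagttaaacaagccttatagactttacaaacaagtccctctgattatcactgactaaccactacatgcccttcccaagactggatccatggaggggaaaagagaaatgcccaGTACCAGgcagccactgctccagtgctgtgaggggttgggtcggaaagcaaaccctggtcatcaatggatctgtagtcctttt
Cnp: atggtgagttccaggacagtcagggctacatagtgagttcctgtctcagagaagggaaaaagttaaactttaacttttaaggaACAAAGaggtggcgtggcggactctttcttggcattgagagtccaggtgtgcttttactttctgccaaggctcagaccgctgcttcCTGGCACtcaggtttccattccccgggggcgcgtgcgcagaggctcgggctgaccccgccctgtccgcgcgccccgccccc
The Mal window, with 50% G and C, holds none of these words. The Mog window holds GTACCAG, the reverse complement of a Myrf word, from base 83 before the start. The Cnp window holds CTGGCAC from base 81 and ACAAAG from base 167 before the start, and the matches do not overlap. Of the 29 genes, 22 had a promoter in the table. Since a gene can have several starts, these genes had 31 windows. Myrf words were in 4 of the 31, from Cnp, Mag and Mog, and in 5.93% of the 32851 windows of all genes. Sox words were in 10 of the 31 and in 25.2% of all windows, and the E-box word in 3 of the 31, from Aspa and Gsn, and in 13% of all windows. A match is a stretch of letters and not a measured binding site.

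The same comparison was set beside genes that are not in the set. Of 34 other oligodendrocyte genes, a list that includes transcription factors, 31 were lower on the low-Wfs1 arrays. Their median was -0.11, with 15 at an unadjusted p under 0.05. Among them Cryab, a small heat shock protein, averaged 9.11 ± 0.16 on the low-Wfs1 arrays and 9.43 ± 0.19 on the high-Wfs1 arrays (SD, n = 10 and 8), a difference of -0.33 (limma adjusted p = 0.443), and Lpar1, a lysophosphatidic acid receptor, differed by -0.21 (limma adjusted p = 0.594). Of 18 other precursor genes 13 were lower, with a median of -0.03. The one below an unadjusted p of 0.05 was Enpp6, an enzyme of newly formed oligodendrocytes, at -0.17, and next to it stood Neu4, a sialidase, at -0.13. No gene of either list passed the adjusted threshold.

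Cholesterol is a main lipid of myelin, and 14 of 16 genes of its synthesis were lower on the low-Wfs1 arrays, with a median of -0.05 and 0 at an unadjusted p under 0.05. Ebp and Dhcr7, enzymes of its late steps, differed by -0.11 and -0.08. Of 16 genes of the node and paranode, where the sheath ends on the axon, 13 were lower with a median of -0.04. Cntn2, an adhesion protein beside the node, differed by -0.12 (SE 0.045) and Nrg1, an axonal growth factor for myelinating cells, by -0.12 (SE 0.055). Of 6 genes of Schwann cells, which make myelin in peripheral nerve, 3 were lower and 3 higher, and Drp2, of the dystroglycan complex, differed by -0.09 and Pmp22, a protein of peripheral myelin, by -0.04.

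Markers of neighbouring regions also differed on average between the sides. Of 16 thalamic markers 14 were lower on the low-Wfs1 arrays, with a median of -0.11 and 5 at an unadjusted p under 0.05. Their mean level ran from 9.39 to 9.67 on the low-Wfs1 arrays and from 9.49 to 9.75 on the high-Wfs1 arrays, and Rgs16, a thalamic regulator of G-protein signalling, differed by -0.23 (limma adjusted p = 0.362), and Zmat4 by -0.15. Of 18 hypothalamic markers 17 were higher, with a median of 0.06, 3 at an unadjusted p under 0.05, and a mean level of 7.54 to 7.71 on the low-Wfs1 arrays and 7.48 to 7.63 on the high-Wfs1 arrays. Nr5a1, the factor of the ventromedial nucleus, differed by 0.14 and Bsx, a homeobox factor of the arcuate nucleus, by 0.13. Of 14 choroid plexus markers 12 were higher, with a median of 0.094, 2 at an unadjusted p under 0.05, and a mean level of 6.58 to 7.46 on the low-Wfs1 arrays and 6.66 to 6.84 on the high-Wfs1 arrays. Clic6, a chloride channel protein, averaged 8.42 ± 0.19 on the low-Wfs1 arrays and 8.12 ± 0.15 on the high-Wfs1 arrays, a difference of 0.29 (limma adjusted p = 0.594), and Folr1, a folate receptor, differed by 0.19. Ttr, the transport protein that choroid plexus secretes, ran from 8.01 to 12.80 over the arrays with its peak on wt/WT 3. The part of these tissues in the myelin result was not tested. With the mean of the thalamic markers as a covariate, 25 of the 29 genes were lower on the low-Wfs1 arrays, where 48.1% of all genes were in that fit, with a median of -0.11. At an unadjusted p under 0.05, 8 of the 29 were lower, where 1.62% of all genes were.

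The lists of the other cell types had medians of smaller size than the thalamic, hypothalamic and choroid plexus lists. Single genes were not all smaller, as the difference of Gfap was larger in size than that of Mal, -0.27. Of 15 astrocyte markers 9 were lower with a median of -0.02, and they did not move as 1 group: Gfap, the astrocyte filament, averaged 9.14 ± 0.13 on the low-Wfs1 arrays and 8.82 ± 0.23 on the high-Wfs1 arrays, a difference of 0.33 (limma adjusted p = 0.443), while Aldh1l1, a folate enzyme of astrocytes, differed by -0.19 (limma adjusted p = 0.776). Among the astrocyte markers 2 were lower and 2 higher at an unadjusted p under 0.05. Of 13 endothelial and mural markers 9 were lower with a median of -0.01, and 2 of them at an unadjusted p under 0.05, Tek, an endothelial receptor, at -0.16 and Vtn, made by pericytes, at -0.18. In the microglial, neuronal and meningeal lists 0 genes reached an unadjusted p of 0.05. Of 13 microglial markers 10 were higher with a median of 0.02, and Laptm5 and Ctss, lysosomal genes, differed by 0.08 and 0.09. Of 14 neuronal markers 9 were lower with a median of -0.03, with Rbfox3, a splicing factor of neurons, at 0.07 and Eno2, a neuronal enolase, at -0.06. Of 12 meningeal and fibroblast markers 8 were lower with a median of -0.01, with Bgn, a matrix proteoglycan, at -0.14 and Slc6a13, a GABA transporter, at -0.13. None of these genes passed the adjusted threshold.

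Within the sides, where only the spread of Wfs1 among the low arrays and among the high arrays counts, the slope on Wfs1 was negative for 20 of the 29 genes, where 46.6% of all genes had a negative slope, and for 17 of the 21 mature-cell genes. A negative slope is a lower level with more Wfs1, the opposite of the direction between the sides. None of the 29 passed the adjusted threshold (lowest limma adjusted p 0.661), where 1 gene of all, 0.00502%, did. At an unadjusted p under 0.05, 3 of the 29 had a negative slope, where 3.32% of all genes did. The median standard error of these slopes over all genes was 0.306, and their difference from the relation between the sides was not tested.

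By the ending of the title, most of the genes were higher where Wfs1 was higher on average, as between the Wfs1 sides. On arrays ending in ko 27 of the 29 genes had a higher mean than on arrays ending in wt, where 51.8% of all genes did, and the median difference, ko minus wt, was 0.063. Without wt/WT 4 that median was 0.108, and without the 3 arrays of smallest standard deviation 0.027. No gene of the set and none of all genes, 0%, passed the adjusted threshold. At an unadjusted p under 0.05, 2 of the 29 were higher, where 1.87% of all genes were. These were Nkx6-2, which ran from 8.48 to 8.80 on arrays ending in ko and from 8.27 to 8.65 on those ending in wt, a difference of 0.12 (SE 0.055, limma adjusted p = 0.884), and Gpr17, which differed by 0.11 (SE 0.051, limma adjusted p = 0.884). The 29 values ran from -0.028 for Plekhh1 (SE 0.067) to 0.16 for Ermn (SE 0.101) and for Gpr37 (SE 0.082). Wfs1 was also higher on average on the arrays ending in ko, and the 10 low-Wfs1 arrays hold 6 of the 8 arrays ending in wt, so the endings and the sides are partly the same division. With the ending as a covariate, 27 of the 29 were lower on the low-Wfs1 arrays, with a median of -0.12.

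**Figure D3:**
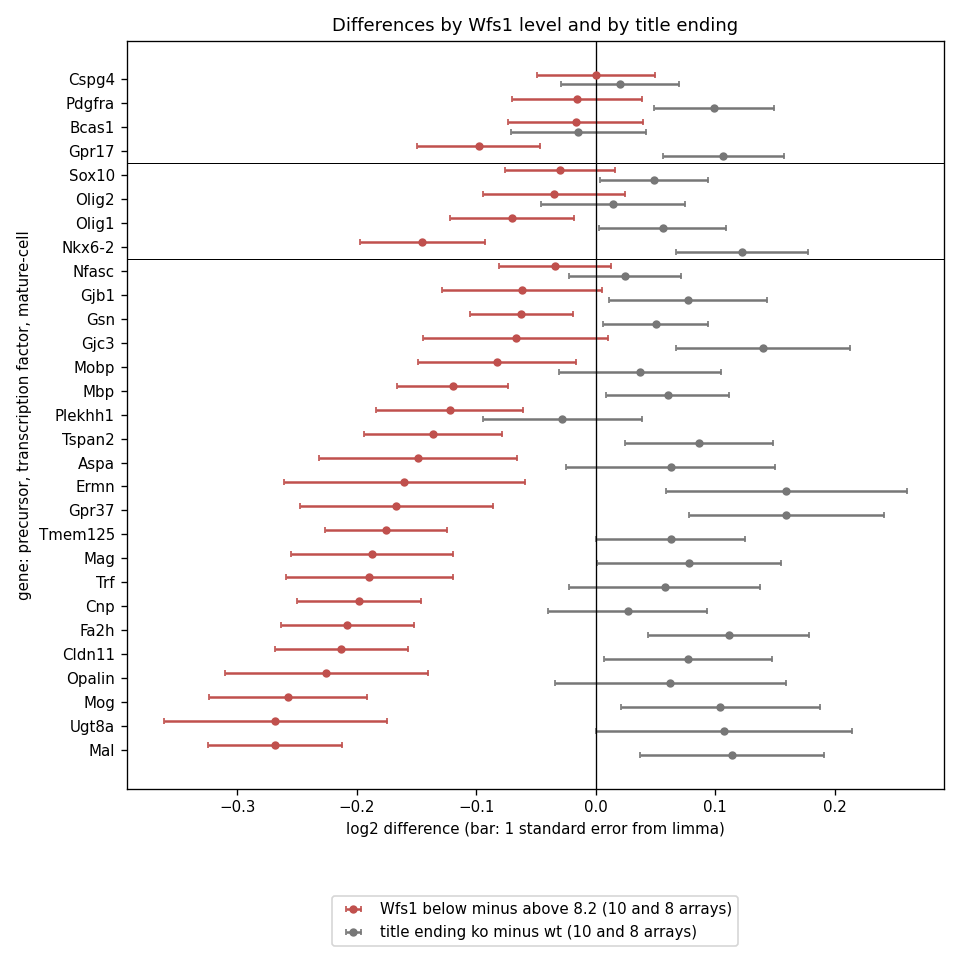
Log2 difference of each of the 29 genes between arrays with Wfs1 below and above 8.2 (red) and between arrays ending in ko and in wt (grey), with bars of 1 standard error from limma; horizontal lines part precursor genes, transcription factors and mature-cell genes. Red points run from -0.27 for Mal to about 0 for Cspg4, and grey points from -0.028 for Plekhh1 to 0.16 for Ermn and Gpr37.

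By the genotype field the genes showed no common direction. On KO arrays 17 of the 29 had a higher mean than on WT arrays, where 47.2% of all genes did, with a median difference, KO minus WT, of 0.0044. None passed the adjusted threshold (0% of all genes), and 0 of the 29 were higher at an unadjusted p under 0.05, where 2.49% of all genes were. The values lay between -0.097 for Trf (SE 0.077) and 0.089 for Ugt8a (SE 0.107). Trf ran from 10.66 to 11.03 on KO arrays and from 10.73 to 11.29 on WT arrays, and Ugt8a from 9.63 to 10.29 on KO arrays and from 9.39 to 10.28 on WT arrays, and the arrays of the 2 fields overlapped for both genes. After quantile normalization 10 of the 29 were higher on KO arrays, without wt/WT 2 it was 7, and without the 3 arrays of smallest standard deviation 5.

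On the 9 arrays whose labels agree, 25 of the 29 had a higher mean on ko/KO than on wt/WT arrays, where 49.5% of all genes did, with a median of 0.083. None passed the adjusted threshold (0% of all genes), and 0 of the 29 were higher at an unadjusted p under 0.05, against 2.90% of all genes. Ermn was at 9.63, 9.13, 9.55, 9.45 and 9.83 on the ko/KO arrays, against 8.86, 9.11, 9.39 and 9.72 on the wt/WT arrays, a difference of 0.25 (SE 0.162, limma adjusted p = 0.555) with overlapping groups. Mal was at 10.41, 10.18, 10.30, 10.07 and 10.04 on the ko/KO arrays, against 9.89, 9.87, 10.28 and 10.42 on the wt/WT arrays. Its lowest values, 9.87 and 9.89, are those of wt/WT 2 and wt/WT 1, and its highest is also a wt/WT array. As single arrays were left out the count ran from 18 to 29 and the median from 0.031 to 0.138. The median was 0.031 without wt/WT 2, 0.035 without ko/KO 1, 0.055 without wt/WT 1 and 0.138 without wt/WT 4. Without wt/WT 1, wt/WT 2 and ko/KO 2 together 11 of the 29 were higher on ko/KO arrays, with a median of -0.015. An interaction of ending and field was called for none of the 29, with a lowest limma adjusted p of 0.927.

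Within the set the genes varied together across the 18 arrays. The median Pearson correlation was 0.52 over the 406 pairs of the 29 genes and 0.59 over the 210 pairs of mature-cell genes, beside 0.12 for pairs of all genes above the median level and 0.010 for pairs of all genes. These are descriptions over arrays that share their hybridization and normalization. The median was 0.19 for the 6 precursor pairs, 0.29 for the 6 transcription factor pairs and 0.38 for the 84 pairs of a mature-cell gene with a precursor gene. With the mean of each Wfs1 side removed, mature-cell pairs kept a median of 0.47. Without ko/KO 1 and wt/WT 2, the arrays farthest from the median of the set, the 29 genes had a median of 0.37 and the mature-cell genes 0.48.

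The closest pairs were Ermn with Aspa at r = 0.89, Cldn11 with Mal at 0.88 and Cnp with Cldn11 at 0.88, and the lowest was Aspa with Cspg4 at -0.29. Set against the mean of the other 28 genes, Mal and Mbp had r = 0.88 and 0.87, and Ugt8a 0.87. Opalin reached 0.43, Sox10 0.39, Olig2 0.30 and Cspg4 0.090. The precursor genes differed among themselves, as Gpr17 had r = 0.74, Bcas1 0.58 and Pdgfra 0.47. Pdgfra followed the standard deviation of the arrays more closely, with r = 0.75, where the mean of the mature-cell genes had 0.38.

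**Figure D4:**
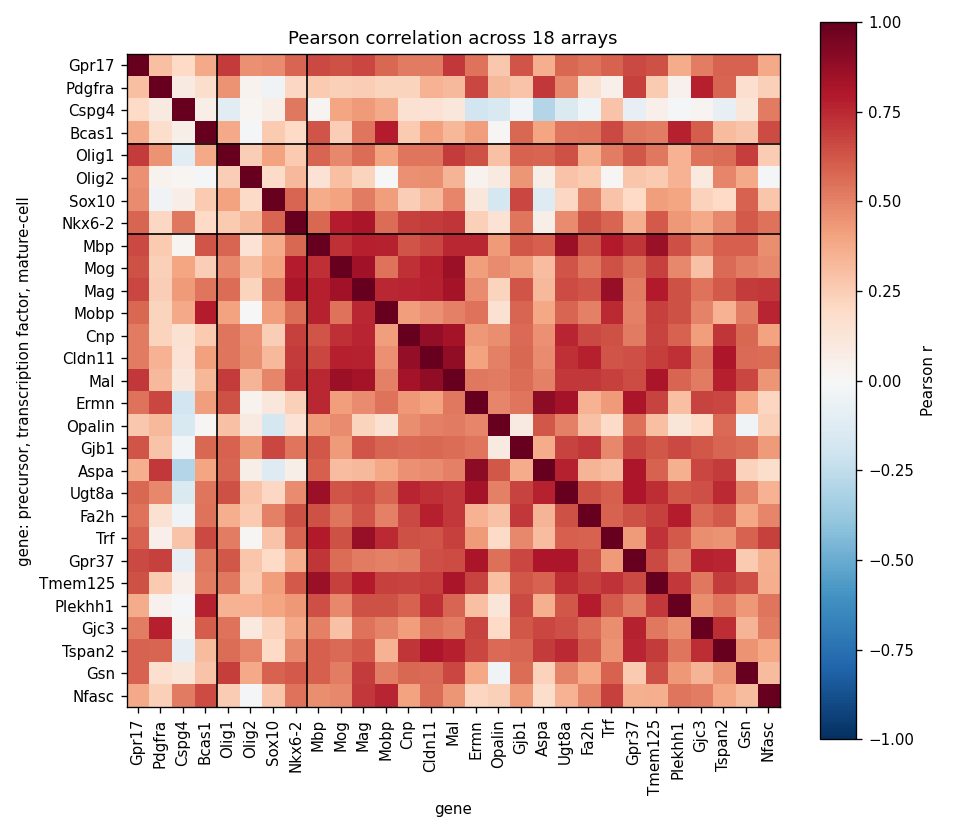
Pearson correlation of each pair of the 29 genes across the 18 arrays, from blue at -1 to red at 1, with lines between precursor genes, transcription factors and mature-cell genes. The mature-cell block is red almost throughout, Cspg4 is pale in most of its row, and Ermn with Aspa gives the highest value, 0.89.

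The array means of the 21 mature-cell genes ran from 9.29 to 9.59 on the low-Wfs1 arrays, with a median of 9.50, against 9.43 to 9.77, with a median of 9.62, on the high-Wfs1 arrays. The lowest value was that of wt/WT 2, the highest that of ko/KO 1, and ko/KO 2 was the high-Wfs1 array nearest the bottom. This mean had r = 0.95 (Spearman rho 0.92) with the mean of the 34 other oligodendrocyte genes, 0.93 without the 2 farthest arrays. It had r = 0.76 (rho 0.68) with the 4 precursor genes, 0.62 without those arrays, and 0.81 (rho 0.74) with the endothelial and mural markers, 0.68 without them. With neuronal markers r was 0.68 (rho 0.60), with thalamic markers 0.49 (rho 0.57), with hypothalamic markers -0.55 (rho -0.56) and with microglial markers 0.056 (rho 0.079). The genes of cholesterol synthesis had r = 0.28 (rho 0.24), and 0.030 without the 2 farthest arrays. Astrocyte markers had r = 0.53 (rho 0.25), and 0.21 without the 2 farthest arrays. The means of the astrocyte and neuronal markers also followed the standard deviation of the arrays, with r = 0.88 and 0.71. For the precursor mean this r was 0.64, and for the endothelial and mural mean 0.58. With the side means removed r was 0.92 for the other oligodendrocyte genes, 0.88 for endothelial and mural, 0.81 for precursor, 0.77 for neuronal, 0.72 for astrocyte and 0.18 for thalamic genes. They are among 15 such relations computed, and what they rest on was not tested.

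**Figure D5:**
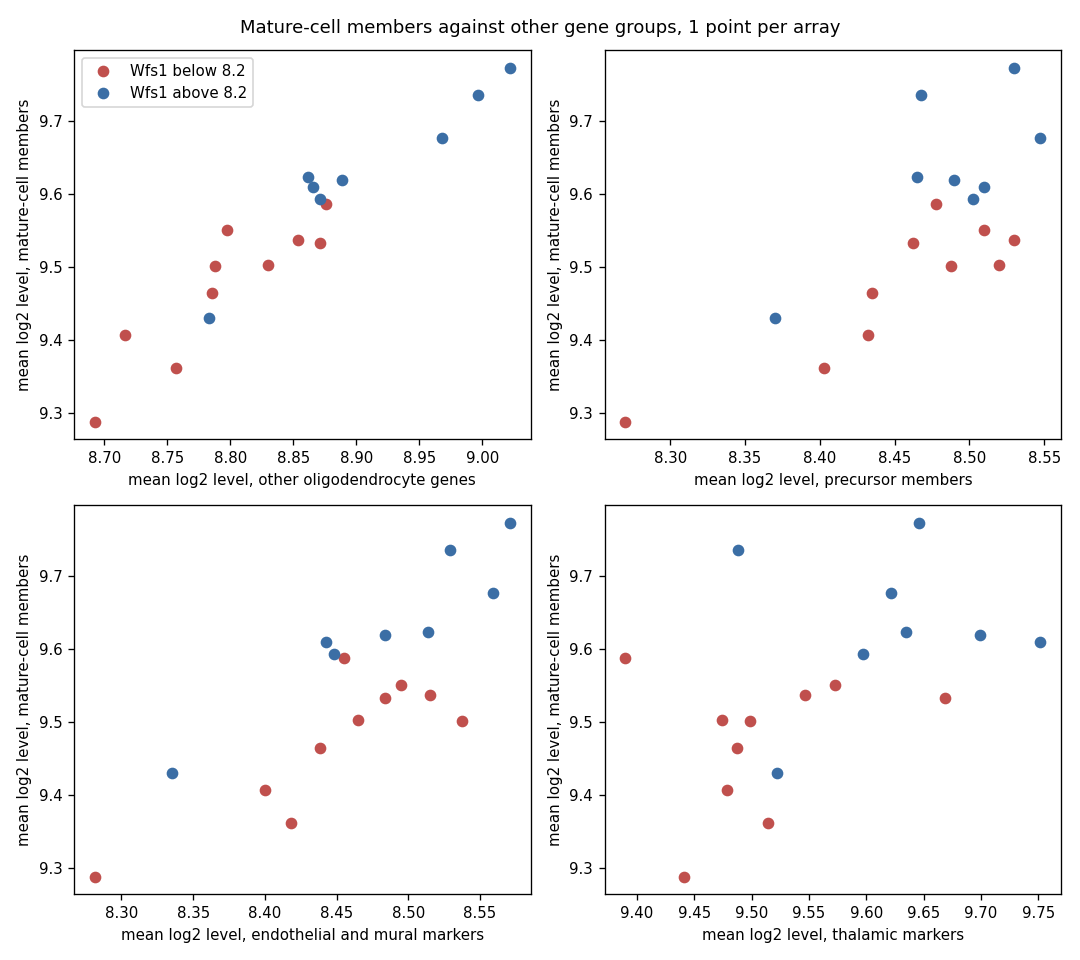
Mean log2 level of the 21 mature-cell genes (vertical axes) against the mean of 4 other gene groups (horizontal axes), 1 point per array, with arrays of Wfs1 below 8.2 in red and above 8.2 in blue. The points lie near a line for the other oligodendrocyte genes (r = 0.95) and scatter widely for the thalamic markers (r = 0.49).

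Among genes outside the set and above the median level, those nearest to the mature-cell mean across the 18 arrays were S1pr5 (r = 0.91), Tmem88b (0.90), Kif13b (0.90), Fgfr2 (0.89), Il1rap (0.89), Cmtm5 (0.89), Gatm (0.88), Cers2 (0.87), Clcn4 (0.87) and Tmem63a (0.87). S1pr5 is a sphingosine phosphate receptor of oligodendrocytes and Cers2 the ceramide synthase of long-chain myelin lipids. S1pr5, Tmem88b, Cers2 and Tmem63a were on the list of other oligodendrocyte genes. All 10 had r of at least 0.77 without the 2 farthest arrays. In the Wfs1 comparison Cmtm5, a membrane protein of the MARVEL family, averaged 10.77 ± 0.10 on the low-Wfs1 arrays and 11.01 ± 0.10 on the high-Wfs1 arrays (SD, n = 10 and 8), a difference of -0.24 (SE 0.051, limma adjusted p = 0.362).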

How the data were processed

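RNA of dissected hypothalami was labelled by a whole-transcript protocol, per the labels. The deposited table holds log2 values, taken as normalized by the authors. RMA and MAS5 are named in the submitters' processing notes without a stated role. It has 34760 probesets, of which 21640 had 1 gene in the platform annotation, 1321 several and 11799 none listed. The brightest single-gene probeset over all arrays stood for each of 19937 genes. RMA, where used, compresses small differences. Scan batches were not examined here.

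The Wfs1 sides, title endings, genotype fields and agreeing arrays were each fitted with limma 3.58.1 (R 4.3.3, lmFit and eBayes, no covariate), with Benjamini-Hochberg adjustment over all genes and a threshold of 0.05. The fits were also run on simulated data with noise independent between genes. That run does not cover genes that vary together, as those of the set do. Alternatives were other probeset summaries, quantile normalization, a filter on the dimmest 40%, a variance trend, array weights, covariates, Wfs1 as a continuous predictor, and leaving out each array. Leaving out the 3 arrays of smallest standard deviation and the fit of Wfs1 within the sides were chosen after seeing the data. The members and lists were chosen with earlier results of these data known. Named were all members, the 2 genes of smallest p per other list, and the 10 outside genes closest to the mature-cell mean, predicted genes passed over; other names (C4b, Wbp1, Ttr) were chosen after their values were seen. The number of arrays limits the precision.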

Additional observations from a re-analysis of the deposited data

Results flagged for a closer look

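In groups of 4 or 5 arrays of 1 label pair, 5 of 124 sets of values had an array far from its group, where chance alone gives about 1 in 20. Gjb1 was at 8.01 on ko/KO 1, where the other ko/KO arrays lay between 7.45 and 7.59, and at 7.70 on wt/KO 4, against 7.47 to 7.50 on the other wt/KO arrays. Trf was at 11.11 on wt/WT 4, against 10.73 to 10.76 on the other wt/WT arrays. Nkx6-2 was at 8.27 on wt/WT 2, against 8.59 to 8.61 on the others of its group. Gjc3 was at 9.29 on ko/WT 2, against 9.42 to 9.46 on the others of its group. The 5 values lie on 5 different arrays.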

How the results depend on the processing

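In the Wfs1 comparison none of the 29 genes was called under any alternative run, and 25 to 29 of them were lower on the low-Wfs1 arrays under every alternative that gives a low-minus-high difference. The count lower at an unadjusted p under 0.05 was 12 to 17 as single arrays were left out and 8 with the thalamic covariate; the cause of the lower count was not tested. Olig2 gave 0.016 with array weights and 0.014 without the 3 narrowest arrays, Pdgfra 0.0071 without those arrays, 0.040 with the thalamic covariate and 0.022 with the ending covariate, and with the thalamic covariate Gjc3 gave 0.025, Nfasc 0.0082 and Pmp22 0.0034. As single arrays were left out, Olig2 ran from -0.054 to 0.0061, Pdgfra from -0.036 to 0.012, Cspg4 from -0.017 to 0.027 and Bcas1 from -0.057 to 0.0027 between the sides, Plekhh1 from -0.065 to 0.0017 by the title ending, and Bcas1 from -0.088 to 0.015 on the agreeing arrays. Mobp (-0.117 to -0.046), Ermn (-0.214 to -0.106), Olig1 (-0.095 to -0.041), Sox10 (-0.057 to -0.014) and Nfasc (-0.057 to -0.014) kept their sign between the sides but moved by over 1.5 times.

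By the title ending the count higher at an unadjusted p under 0.05 was 1 after quantile normalization, 5 with a variance trend and 1 without the 3 narrowest arrays. It was 0 to 6 as single arrays were left out (6 without wt/WT 4, 4 without ko/KO 2, 0 or 1 without each of 9 others). Of all 19937 genes, 442 were higher at that threshold with a variance trend, 393 without wt/WT 4 and 835 without ko/KO 2. By the field the number higher was 10 after quantile normalization, 9 with array weights, 5 without the 3 narrowest arrays and 7 to 21 as single arrays were left out (7 without wt/WT 2, 10 without ko/KO 1 or wt/KO 4). From 0 to 1 of the 29 were higher at an unadjusted p under 0.05 (1 without ko/KO 5, where 403 of all 19937 genes were). On the agreeing arrays 11 were higher without the 3 narrowest arrays, and 0 to 4 reached an unadjusted p under 0.05 as single arrays were left out (4 without wt/WT 4, 1 without ko/KO 2 or wt/WT 3). Of all 19937 genes, 747 were higher at that threshold without wt/WT 4, 1903 without ko/KO 2 and 666 without wt/WT 3. The median correlation of the 29 genes was 0.368 without the 2 farthest arrays and 0.406 without the 3 narrowest, and that of the mature-cell genes 0.471 with the sides removed, 0.477 and 0.475. The median of the 29 genes by the field changed sign, to -0.018 after quantile normalization, -0.027 with array weights, -0.033 without the 3 narrowest arrays and -0.024 to 0.020 as single arrays were left out, and that on the agreeing arrays was -0.015 without the 3 narrowest. None of the 29 genes passed the adjusted threshold by either label or on the agreeing arrays under the alternatives run. Detection calls were not used here, so how far signal over background limits Cspg4 was not tested.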
